A study of Rattus norvegicus with 3 samples.

Results

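The genes described here are the embryonic and adult globins of the rat, the protein chains that carry haem in red blood cells. Members were taken by symbol from the gene lists deposited with the data, which gave 10 of the 29772 genes listed. Embryonic members were Hbz on the alpha side and Hbe1, Hbe2 and Hbg1 on the beta side, and adult members were Hba-a1, Hba-a2 and Hba-a3 on the alpha side and Hbb, Hbb-bs and Hbb-b2 on the beta side. They were followed through 3 single-cell RNA libraries from the cerebral cortex of wild-type Rattus norvegicus, labelled embryonic day 14, 16 and 18 (E14, E16 and E18), with 1 library per label and no treatment other than papain dissociation and a PBS wash of fresh tissue. The labels used here give no number of embryos or litters, and nothing states that red cells were removed. Each library counts unique molecular identifiers (UMIs), 1 per captured RNA molecule, at the 3′ end of transcripts, so levels were compared between genes as UMIs and not per length. With 1 library per label there was no test across samples: the printed intervals are exact Poisson intervals for sums and exact Clopper-Pearson intervals for shares, both at 95% and covering counting error only, and barcodes were not treated as replicates.

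Haemoglobin pairs alpha-like with beta-like globin chains around haem. Early in mammalian development, primitive red cells made in the yolk sac carry mainly zeta (Hbz) and epsilon-type (Hbe1) chains; definitive red cells made later, chiefly in the fetal liver, carry alpha and adult beta chains. Primitive cells enter the circulation with a nucleus and also switch chains while they mature, and definitive cells lose the nucleus before release. In a dissociated cortex these transcripts are usually taken to come from blood in the vessels and from RNA released into the suspension.

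In the RefSeq gene order of assembly GRCr8, used here for neighbours only, the beta-like genes of chromosome 1 lie in the order Hbe1, Hbe2, Hbg1, a pseudogene, Hbb, Hbb-b2, Hbbl1, Hbb-b1 and Hbb-bs, and the alpha-like genes of chromosome 10 in the order Hbz, Hba-a1, Hbq1b, Hba-a2 and Hba-a3, with other loci between. RefSeq promoters on GRCr8 were found for 8 of the 10 members, all but Hbe2 and Hbg1. The 130 bases that end at the base before the annotated start are shown for the main embryonic gene of each cluster, for the 2 adult beta-like genes whose levels parted between kinds of barcode, and for the pair of adult alpha-like genes with near-identical upstream sequence. Capitals mark 4 short motifs searched on both strands. One was TATAAA, the core of the box bound by the general transcription machinery. Another was CCAAT, the box bound by nuclear factor Y. The next was GATAA, the core recognised by erythroid factors such as Gata1. The last was CACCC, recognised by Krüppel-like factors such as Klf1. All lie on the minus strand and read 5′ to 3′: Hbz at chr10:15849758-15849887, Hbe1 at chr1:167696281-167696410, Hbb at chr1:167663722-167663851, Hbb-bs at chr1:167631631-167631760, Hba-a1 at chr10:15842581-15842710 and Hba-a2 at chr10:15829139-15829268.
Hbz: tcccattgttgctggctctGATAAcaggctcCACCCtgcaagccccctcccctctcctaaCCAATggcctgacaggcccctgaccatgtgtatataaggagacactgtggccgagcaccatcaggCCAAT
Hbe1: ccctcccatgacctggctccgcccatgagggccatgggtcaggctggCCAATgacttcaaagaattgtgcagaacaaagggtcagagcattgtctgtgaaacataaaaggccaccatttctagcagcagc
Hbb: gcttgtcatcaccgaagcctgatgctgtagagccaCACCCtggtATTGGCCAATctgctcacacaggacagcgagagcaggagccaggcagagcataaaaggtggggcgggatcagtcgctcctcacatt
Hbb-bs: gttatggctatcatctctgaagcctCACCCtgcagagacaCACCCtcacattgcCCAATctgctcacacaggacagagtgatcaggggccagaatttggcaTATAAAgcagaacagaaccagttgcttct
Hba-a1: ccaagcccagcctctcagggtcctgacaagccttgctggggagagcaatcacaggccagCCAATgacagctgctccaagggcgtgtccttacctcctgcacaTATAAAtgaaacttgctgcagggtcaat
Hba-a2: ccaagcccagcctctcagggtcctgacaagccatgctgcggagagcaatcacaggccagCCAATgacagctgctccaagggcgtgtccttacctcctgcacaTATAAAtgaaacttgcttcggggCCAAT
CCAAT was present in all 8 member windows and in 21.3% of 33469 rat promoter windows of the same length. TATAAA was present in Hbb-bs, Hbb-b2, Hba-a1, Hba-a2 and Hba-a3 and in 7.14% of all windows; those letters were not in the windows of Hbz, Hbe1 and Hbb. GATAA occurred in the Hbz window alone among the 8, against 12.2% of all windows. CACCC occurred in Hbz, Hbb, Hbb-b2 and, at 2 places, in Hbb-bs, against 31.4% of all windows. In Hbb, CCAAT stands on each strand side by side, which gives the run of 10 capitals, and no other marked motifs overlap. Over the 250 bases upstream, Hba-a1 and Hba-a2 were 96.4% identical and Hbb-bs and Hbb-b2 94.8%, whereas Hbb and Hbb-bs were 61.2% identical. Transcript sequences were not compared, and how reads that match more than 1 copy were assigned is not given in the sources used here. The part of such reads in the split of UMIs between Hba-a1 and Hba-a2, and between Hbb-bs and Hbb-b2, was not tested.

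The libraries held 6707 to 7100 barcodes and 62740631 to 80974234 UMIs. Globins took 0.970% of UMIs labelled E14, 6.67% labelled E16 and 1.46% labelled E18. Nearly all of them, 97.9% to 99.1%, sat in barcodes with at least 500 globin UMIs, here called globin-rich, of which there were 38, 229 and 69 in label order. The gap around the limit was wide labelled E14, where the highest barcode below it had 98 globin UMIs and the lowest above it 877; it was 306 and 722 labelled E16, and 494 and 639 labelled E18. Barcodes with under 100 globin UMIs, taken as the ambient level, numbered 7062, 6473 and 6861, and their median globin UMIs were 1, 7 and 3. Between 12 and 17 barcode sequences were shared by each pair of libraries, none of them globin-rich in both.

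Genes known to change with embryonic day in cortex were not ordered as the labels are, so every difference below is between libraries as labelled. In ambient-level barcodes Hmga2, an early progenitor gene, stood at 1.59 counts per 1000000 UMIs outside the globins (CPM) labelled E14, 184.0 labelled E16 and 10.8 labelled E18. Aldoc, a gene of late progenitors and glia, stood at 149.6, 18.0 and 141.4 CPM. Cortical markers matched the labelled tissue: the 5 neuronal markers summed to 7008, 1140 and 3301 CPM in ambient-level barcodes, and the 5 radial glia markers to 1131, 2568 and 2286 CPM. The globin-rich barcodes carried the erythroid markers, at 7491, 18191 and 21682 CPM, against 4.65, 8.11 and 6.22 CPM at the ambient level. Without the barcodes in which globins were under 50% of UMIs, a limit set after the data were seen that left 35, 217 and 65, these values were 30076, 21607 and 29261 CPM. Labelled E14 the 3 barcodes left out brought the UMIs outside the globins from 351737 to 77471, so the place of that library as the lowest rests on them. Without them its counting interval (28867 to 31322) overlapped that labelled E18 (28470 to 30067).

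Every embryonic member was highest labelled E16 and lowest labelled E14. Hbe1, the main embryonic beta-like chain, stood at 232.3, 29347 and 2921 CPM, for the globins taken over all UMIs, in the libraries labelled E14, E16 and E18. Hbz, the zeta chain that partners it, stood at 15.5, 13408 and 270.8, so that the E16 level was 864-fold the E14 level and 49.5-fold the E18 level. Hbg1, a gamma-type chain of the embryonic group, had the widest range, with 1.74, 2246 and 29.8 CPM. Hbe2 was rare in all 3 libraries, with 7, 652 and 82 UMIs in total, or 0.112, 8.05 and 1.11 CPM.

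Adult members split. Hbb, the most abundant adult beta-like chain labelled E14 and E18, ran the other way, at 3819, 842.9 and 3002 CPM, 4.53-fold lower labelled E16 than labelled E14. Hbb-b2 was also lowest labelled E16, but highest labelled E18, at 37.6, 13.3 and 66.9. Hbb-bs did not share that low: its levels of 616.8, 1075 and 879.8 were highest where Hbb was lowest. The alpha chains, which both red cell types use, were also highest labelled E16, with Hba-a1 at 3003, 14209 and 4786 and Hba-a2 at 1967, 5586 and 2645. Hba-a3 was a minor transcript at 4.83, 14.04 and 32.4 CPM.

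**Figure D1:**
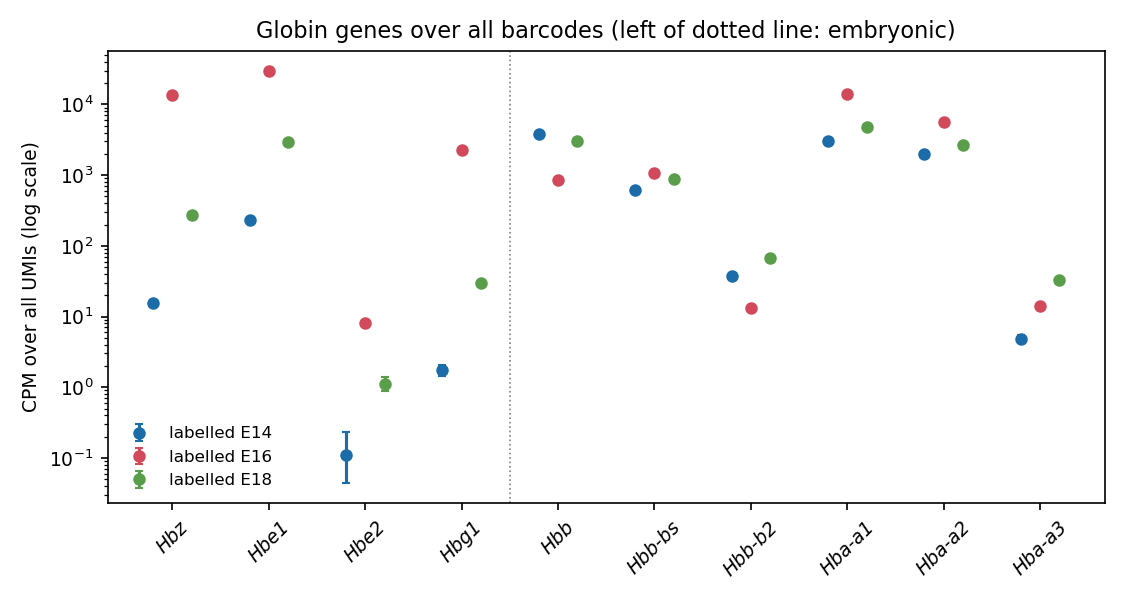
CPM over all UMIs (log axis) of each globin gene over all barcodes of the libraries labelled E14, E16 and E18; bars on the points, mostly smaller than the points, are exact Poisson 95% intervals and cover counting error only. The 4 embryonic genes left of the dotted line peak labelled E16, while Hbb and Hbb-b2 are lowest there.

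The 3 counting intervals of each member did not overlap between libraries, which says nothing of the spread between animals. Of the 9 members with a mean of at least 5 CPM (Hbe2 fell below), 6 were at least 2-fold higher and 2 at least 2-fold lower labelled E16 than labelled E14, against 12.3% and 12.2% of all genes outside the globins. The members were taken over all UMIs, and the other genes over UMIs outside the globins, so the 2 measures differ. From E16 to E18 by label, 3 were higher and 5 lower, against 5.64% and 1.21%. From E14 to E18 by label, Hbz, Hbe1, Hbg1 and Hba-a3 were higher and none lower, against 7.7% and 4.17%. Both calls of Hba-a3 for E18 rest on 8 barcodes with at least 100 of its UMIs, a limit set after the values were seen: they held 1780 of 2389, and without them its level was 8.28 CPM, 1.72-fold the E14 level and 0.590-fold the E16 level. Within a library the order of the 10 genes also changed: Hbb led labelled E14, Hbe1 labelled E16 and Hba-a1 labelled E18. Hba-a3 and Hbb-b2 labelled E16 were the only neighbours in those orders whose counting intervals overlapped.

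As shares, embryonic chains made up 4.97% of beta-like UMIs labelled E14 (4.895 to 5.05), 94.2% labelled E16 (94.2 to 94.3) and 42.8% labelled E18 (42.6 to 42.9). Hbz made up 0.311%, 40.4% and 3.50% of alpha-like UMIs. Thus the beta side was far more embryonic than the alpha side in each library. In bulk sums such as these, a different number of red cells of a kind and a different amount of RNA per cell cannot be told apart, which the per-barcode values below address only in part.

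The intermediate share labelled E18 came from a near-equal number of barcodes of 2 opposite kinds, not from barcodes with intermediate content. Globin-rich barcodes were classed by the embryonic share of their beta-like UMIs as embryonic (over 90%), adult (under 10%) or mixed. Labelled E14 there were 3 embryonic, 0 mixed and 35 adult barcodes; labelled E16, 211, 13 and 5; and labelled E18, 31, 4 and 34. Shares between 20% and 80% were held by 0, 1 and 2 barcodes. In the adult class 35 of 35, 2 of 5 and 32 of 34 barcodes lay under 1%. These classes are fixed by the beta-like genes, so their beta-like shares are a description, whereas the alpha-like genes, the makeup within each group of beta-like genes and all genes outside the globins did not enter the choice. The values nearest the limits were 90.3% and 9.37%, both labelled E16.

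**Figure D2:**
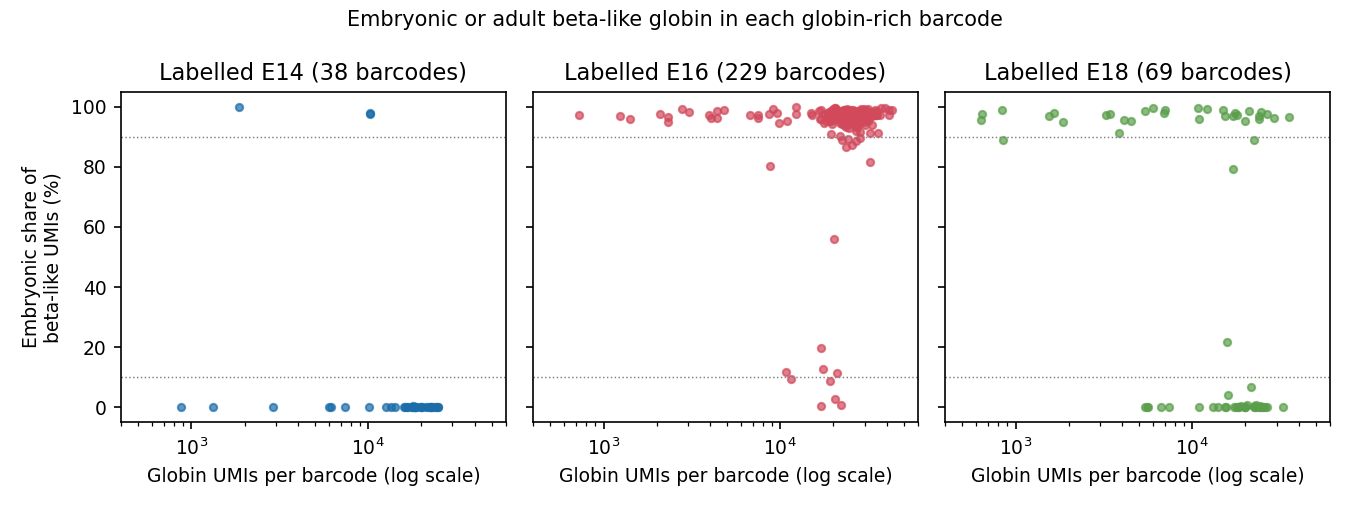
Embryonic share of beta-like UMIs (%) against globin UMIs (log axis) in each globin-rich barcode, 1 panel per library (38, 229 and 69 barcodes). Barcodes gather near 0% and near 100%, with 0, 1 and 2 of them between 20% and 80% labelled E14, E16 and E18; dotted lines mark the class limits of 10% and 90%.

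The summed makeup of the embryonic class was led by Hbe1 in every library, at 64.6%, 45.4% and 51.1% of its globin UMIs labelled E14, E16 and E18. Hbz was 4.24% (3.98 to 4.52), 21.0% (21.0 to 21.1) and 5.02% (4.95 to 5.09). Hba-a1 was 23.9%, 20.7% and 31.1%, and Hba-a2 5.79%, 7.79% and 10.8%. In the adult class Hbb was 41.0%, 30.8% and 33.7% of globin UMIs, Hba-a1 31.1%, 34.1% and 33.3%, and Hba-a2 20.9%, 23.4% and 22.7%. Adult-class barcodes were almost without Hbz: its highest count in any of them was 5, 34 and 23 UMIs, among medians of 18227, 19211 and 19804.5 globin UMIs. Hbe2 had 0 UMIs in the adult class labelled E14 and E18, where a floor of 3 counts corresponds to 0.000519% and 0.000477% of its globin UMIs, and 62 UMIs in the 31 embryonic barcodes labelled E18.

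Embryonic-class barcodes of different libraries were not alike in Hbz. Labelled E16, Hbz was a median of 41.1% of alpha-like UMIs per barcode (quartiles 26.0% and 56.8%, range 0.999% to 76.5%, n = 211). Labelled E18, it was 6.80% (quartiles 2.71% and 13.3%, range 0.210% to 50.2%, n = 31). The 3 embryonic barcodes labelled E14 had 6.15%, 6.31% and 19.6%. Most E18 barcodes lay below the lower quartile of E16, although the ranges overlapped. Among barcodes with at least 1000 detected genes and no more than 10% mitochondrial UMIs, a filter applied to these medians after they were seen, the median was 51.1% labelled E16 (139 barcodes) and 13.4% labelled E18 (7 barcodes).

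Hbg1 went with Hbz within the library labelled E16, but not across the 3 embryonic-class barcodes labelled E14. Hbg1 made up a median of 6.43% of embryonic beta-like UMIs in embryonic-class barcodes labelled E16 (quartiles 2.54% and 10.9%). Labelled E18 its median was 0.364% (quartiles 0.161% and 0.965%). The 3 barcodes labelled E14 had 0.112%, 0.275% and 0.666%. The highest of these was in the barcode with the lowest Hbz share, 6.15%, the only one made mainly of globin. Within the E16 library, barcodes with Hbz under 20% of alpha-like UMIs had a median Hbg1 share of 1.13% (n = 38), those from 20% to 40% had 3.98% (n = 67), those from 40% to 60% had 9.01% (n = 61) and those over 60% had 11.7% (n = 45). Across these 211 barcodes of 1 library the rank correlation was 0.745 (Pearson 0.701). The 2 shares have no gene in common, but the barcodes share a library, and Hbz also went with detected genes (rank correlation 0.625), with UMIs outside the globins (0.511) and with the alpha-like share of globin (0.676, a total that contains Hbz). For globin UMIs the value was 0.060. The part of RNA content in the relation was not tested. Labelled E18, over 31 barcodes, the rank correlation was 0.375 and Pearson's value 0.738, the latter with 1 barcode at 50.2% Hbz and 8.34% Hbg1. There Hbz ran against the alpha-like share of globin, with a rank correlation of -0.519, the opposite sign to E16.

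**Figure D3:**
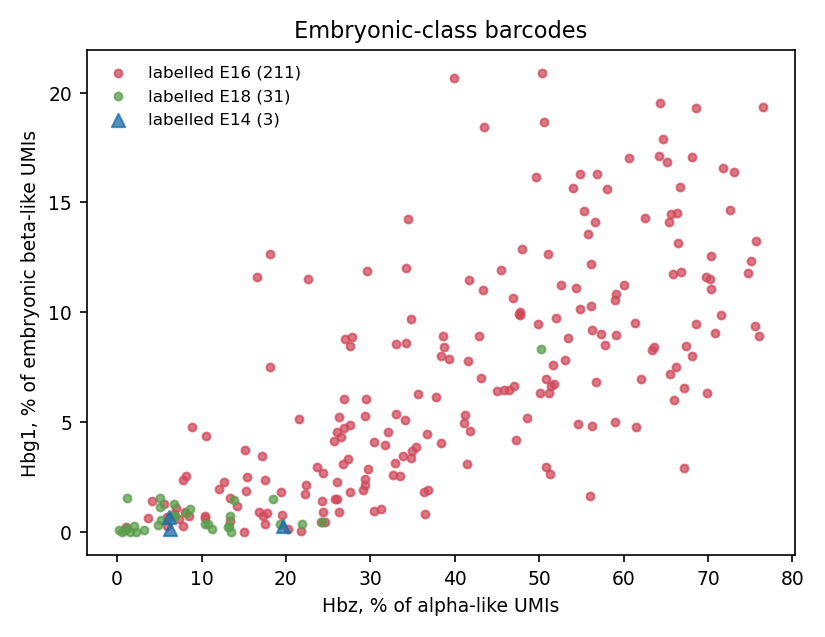
Hbg1 as a percentage of embryonic beta-like UMIs against Hbz as a percentage of alpha-like UMIs, 1 point per embryonic-class barcode of the libraries labelled E14 (3), E16 (211) and E18 (31). Points labelled E16 reach up to 76.5% Hbz and, in another barcode, 20.9% Hbg1, and most points labelled E18 lie near the lower left corner.

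Outside the embryonic class, Hbg1 parted from Hbe1 in a few barcodes. Within the embryonic class no barcode of any library with at least 50 Hbg1 UMIs had more Hbg1 than Hbe1 (0 of 197 labelled E16 and 0 of 7 labelled E18). Among adult and mixed barcodes with at least 50 Hbg1 UMIs this occurred in 5 of 13 labelled E16 and 2 of 4 labelled E18. Labelled E14 no adult-class barcode reached 50 Hbg1 UMIs; the class held 73 Hbg1 and 6 Hbe1 UMIs in all, with 30 of its 35 barcodes at 0 for Hbg1. The clearest, an adult-class barcode labelled E16, had 734 Hbg1 UMIs beside 4 Hbe1, 34 Hbz and 5710 Hbb UMIs. A mixed barcode labelled E16 had 898 Hbg1 beside 8 Hbe1, 18 Hbz and 5227 Hbb UMIs, and another had 616 Hbg1 beside 4 Hbe1 and 3345 Hbb. The other 2 labelled E16 were adult-class barcodes, 1 with 63 Hbg1 beside 3 Hbe1 and 1 near parity, with 123 Hbg1 beside 115 Hbe1. Labelled E18, 2 adult barcodes had 79 and 70 Hbg1 UMIs beside 1 and 0 Hbe1. Apart from the near-even one, these barcodes carried adult Hbb with far more Hbg1 than Hbe1, and the E16 mixed class contains barcodes of this kind beside barcodes in which Hbe1 leads. The ambient level of all globins labelled E16 had a median of 7 UMIs per barcode and held more Hbe1 than Hbg1 (43.6% and 2.79% of ambient globin UMIs). Cells caught together under 1 barcode were not called, and their part was not tested.

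The adult beta-like genes also parted by class. In the adult class, Hbb-bs was a median of 14.3%, 22.0% and 20.8% of adult beta-like UMIs labelled E14, E16 and E18. In the embryonic class, where adult beta-like UMIs are few (medians of 130, 318 and 102 per barcode), Hbb-bs led them in most barcodes: its median share was 99.4% labelled E16 (quartiles 95.5% and 100%, n = 207 barcodes with at least 20 such UMIs) and 97.5% labelled E18 (quartiles 91.0% and 100%, n = 26), and the 2 barcodes labelled E14 that could be scored had 98.1% and 100%. Summed over the class the share was lower than these medians, at 84.3% of 77979 adult beta-like UMIs labelled E16 and 88.8% of 5510 labelled E18, with 12044 and 607 Hbb UMIs among them. Labelled E16, embryonic-class barcodes had a median of 294 Hbb-bs UMIs (7 to 1030) and of 1 Hbb UMI (0 to 1015), and 88 of 211 had no Hbb. Labelled E18 the medians were 100 Hbb-bs and 1 Hbb UMI. Hbb-bs was thus the main adult beta-like gene detected beside Hbe1, and its library total owed 65743 of 87074 UMIs to the embryonic class labelled E16. The mixed barcodes labelled E16 lay between, with a median Hbb-bs share of 29.2% (n = 13). The ambient level labelled E16 held Hbb and Hbb-bs in similar amounts, 1.43% and 1.62% of its globin UMIs.

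A small set of adult-class barcodes labelled E14 had Hbb with almost no Hbb-bs. In 6 of 35, chosen here after the values were seen as those under 5%, Hbb-bs had 2 to 249 UMIs beside 2111 to 6678 Hbb UMIs. The other 29 had Hbb-bs shares of 9.27% to 19.6%, and no adult-class barcode labelled E16 or E18 was under 5% (lowest 13.9% of 5 and 8.33% of 34). The alpha-like share of globin in those 6 ran from 27.1% to 49.99%, and from 47.2% to 59.1% in the other 29. Hbb-b2, whose upstream sequence is close to that of Hbb-bs, was a small gene throughout, at 0.379%, 0.473% and 0.737% of globin UMIs in the adult class and at 0, 192 and 9 UMIs in all in the embryonic class.

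On the alpha side the ratio of the adult genes Hba-a1 and Hba-a2 differed by class in each library. Hba-a1 was a median of 80.5%, 73.2% and 75.5% of the Hba-a1 and Hba-a2 UMIs in embryonic-class barcodes labelled E14, E16 and E18, and 60.7%, 57.6% and 59.8% in adult-class barcodes. The embryonic median labelled E14 is over 3 barcodes, and the only one made mainly of globin had 68.9%. The interquartile ranges did not overlap where both classes were well filled: labelled E18 the quartiles were 72.1% and 78.8% in 31 embryonic barcodes, and 57.8% and 61.8% in 34 adult barcodes. In the gene order Hba-a1 is the nearer of the pair to Hbz. The near identity of the pair was measured upstream of the start only. The part of reads that match both genes in this ratio was not tested. Hba-a3 was a median of 0, 4 and 1 UMI per barcode in the embryonic class and 8, 11 and 12.5 in the adult class. The 8 barcodes labelled E18 with at least 100 Hba-a3 UMIs were 6 of the adult and 2 of the embryonic class, with up to 326 and 274 UMIs, and none labelled E14 or E16 was above 24 and 36.

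Alpha-like and beta-like chains were close to even in the library totals, with alpha-like shares of 51.5%, 49.8% and 52.8%. Per barcode, the median alpha-like share was lower in the embryonic than in the adult class in each library: 34.5% and 52.3% labelled E14, 49.9% and 58.2% labelled E16, and 46.3% and 56.3% labelled E18. The 3 embryonic barcodes labelled E14 had 10.6%, 34.5% and 37.5%, and the first of these was the only one made mainly of globin. The spread was wide in the embryonic class labelled E18, from 37.4% to 88.4%, and narrow in the adult class, from 47.3% to 59.99%.

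**Figure D4:**
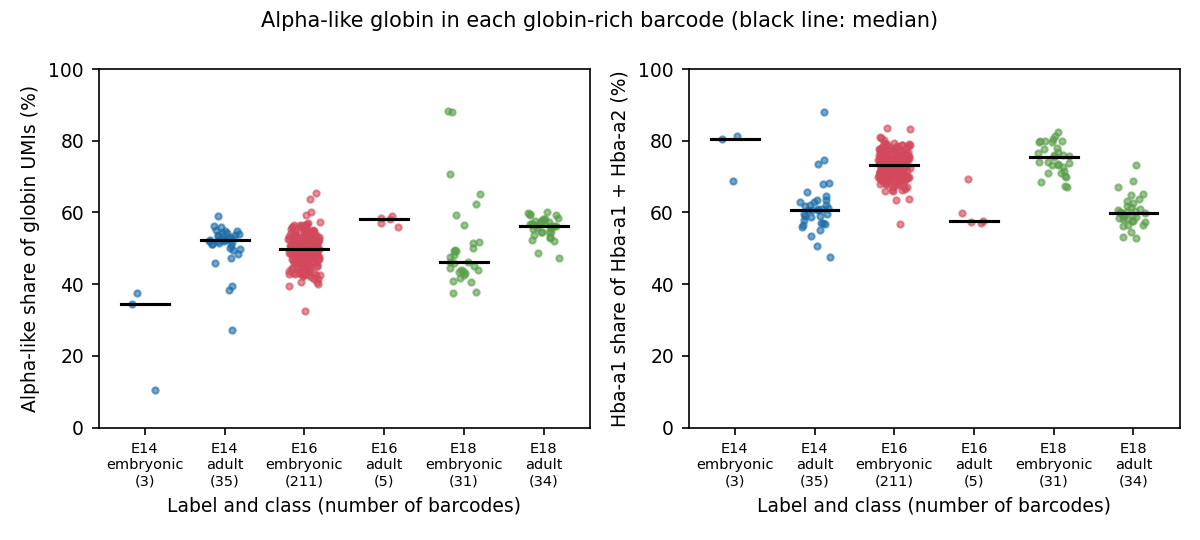
Alpha-like share of globin UMIs and Hba-a1 share of Hba-a1 and Hba-a2 UMIs (%) in each globin-rich barcode by class and library, with the median as a black line. The median Hba-a1 share lies between 73.2% and 80.5% in embryonic-class barcodes and between 57.6% and 60.7% in adult-class barcodes.

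At the ambient level the globins told the libraries apart as the rich barcodes did. Embryonic chains were 3.98% of ambient beta-like UMIs labelled E14 (3.36 to 4.68), 93.7% labelled E16 (93.3 to 93.96) and 57.1% labelled E18 (56.1 to 58.2). The first 2 lie close to the whole-library shares of 4.97% and 94.2%; the share labelled E18 lies above its whole-library share of 42.8%. Ambient Hbz was 0.215% of alpha-like UMIs labelled E14, 33.9% labelled E16 and 4.20% labelled E18. Hbg1 had 0 UMIs among 8152 ambient globin UMIs labelled E14.

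The genes outside the globins that most resembled them included well-known red cell genes such as Ahsp, Alas2 and Slc4a1. Likeness was the lowest, over the 3 libraries, of the log2 ratio of CPM in globin-rich to ambient-level barcodes, among 4045 genes, and the leading genes included Ahsp, Alas2, Cd52, Slc4a1, Tent5c, Tuba4a and RGD1309350. Ahsp, the chaperone of free alpha chains, stood at 3056, 10545 and 10884 CPM in globin-rich barcodes and at 0.227, 2.37 and 0.470 in ambient-level barcodes, with a lowest log2 ratio of 11.28. Without barcodes under 50% globin, Ahsp stood at 12043, 12613 and 14794 CPM in the globin-rich barcodes. Alas2, the erythroid enzyme that opens haem synthesis, stood at 3269, 3429 and 5692 CPM against 0.405, 0.580 and 0.304. Without those barcodes it stood at 13941, 4033 and 7608, so that E14 turned from the lowest library to the highest. Slc4a1 (the band 3 anion exchanger), a red cell membrane protein, had a lowest log2 ratio of 8.42, and of 10.18 without them. Cd52, a surface glycoprotein gene best known from lymphocytes, had 8.73, and 10.54 without them, while the lymphoid markers Cd3e and Cd79a were at 0 in the embryonic and adult classes of all 3 libraries.

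A list of 61 genes of the erythroid programme was described by role, first in globin-rich against ambient-level barcodes. Of the membrane and skeleton genes that could be compared, 11 of 11 labelled E14, 12 of 12 labelled E16 and 12 of 12 labelled E18 were at least 2-fold higher in globin-rich barcodes, against 21.1%, 9.24% and 9.08% of all genes. Haem synthesis genes were higher in 6 of 8, 8 of 8 and 7 of 8, and the chaperone and antioxidant genes in 6 of 6 in each library. Among regulators 7 of 9, 9 of 12 and 8 of 11 were higher, and 1, 3 and 2 were at least 2-fold lower (background 26.9%, 46.6% and 51.4%). Median log2 ratios by role ran from 2.59 to 7.27, against -0.22, -0.93 and -1.04 over all genes. Without barcodes under 50% globin the counts of higher membrane, haem synthesis and chaperone genes were the same, against a background of 15.5%, 9.86% and 9.96%. Of the regulators, 6 of 9, 9 of 12 and 8 of 11 were then higher and 3 were lower in each library (background 48.5%, 58.1% and 64%). Median log2 ratios by role ran from 3.02 to 7.52, against -0.93, -1.26 and -1.58 over all genes.

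The programme beside the globins differed between the classes of the E18 library, the only one with at least 10 barcodes in each (31 embryonic and 34 adult). Of 55 list genes with at least 50 CPM in a class, 42 were at least 2-fold lower and 6 at least 2-fold higher in the embryonic class, while over all genes 20.2% were lower and 32.7% higher. Medians of the log2 ratio were -2.43 for the list and 0.43 for all genes. The 7 haem synthesis genes, the 6 chaperone and antioxidant genes and the 12 membrane genes were all lower. With barcodes under 50% globin left out, which removed 4 of the 31 embryonic barcodes and brought their UMIs outside the globins from 142282 to 78136, the list gave 40 lower and 7 higher of 54 (median -2.01), with 10 of the 12 membrane genes lower, and the background turned to 32.9% lower and 23.3% higher. Markers of cortical cells also differed between these classes: the neuronal markers stood at 1715 CPM in the embryonic class (1506 to 1944) and 728 in the adult class (564 to 925), and the radial glia markers at 1082 (918 to 1267) and 565 (422 to 741), with all 5 neuronal markers present in both. Without the 4 barcodes the embryonic class had 166 CPM for neuronal (88.6 to 285) and 346 for radial glia markers (228 to 503), below the adult class for the neuronal markers. Their part in the contrast was not tested.

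Single genes showed the size of the contrast. Ahsp stood at 457 CPM in the embryonic class (353 to 582) and at 27873 in the adult class (26804 to 28973), with UMIs in 16 of 31 and 33 of 34 barcodes. Alas2 stood at 1588 and 12143 CPM, and Slc4a1 at 520 and 3239. Car2, a carbonic anhydrase of red cells, stood at 337 and 6501 CPM. Car1, the other main red cell carbonic anhydrase, had 0 UMIs in the embryonic class and 142 in 24 adult barcodes. With the embryonic class set at a floor of 3 UMIs, Car1 was 73.2-fold lower. Without the 4 embryonic barcodes under 50% globin, the embryonic class stood at 781 CPM for Ahsp, 2572 for Alas2, 832 for Slc4a1 and 550 for Car2. The adult class lost no barcode, and Car1 was 40.2-fold lower against a floor of 3 UMIs. Lgals5, a galectin, Emb (embigin) and Mki67, a proliferation marker, were also at 0 in the embryonic class beside 104, 62 and 44 UMIs in the adult class. Against the same floor they were 53.6-fold, 32.0-fold and 22.7-fold lower. In the adult class 27 of the 104 Lgals5 UMIs and 34 of the 44 Mki67 UMIs were in 1 barcode each. Without the 4 embryonic barcodes under 50% globin these folds were 29.4-fold, 17.6-fold and 12.5-fold. Labelled E16, Lgals5 had 0 UMIs in both classes. Emb had 10 UMIs there in the embryonic and 4 in the adult class, or 7.62 and 540 CPM. Labelled E16, Mki67 had 249 UMIs in the embryonic class, or 190 CPM (167 to 215), and 0 among the 7405 UMIs outside the globins in the adult class, which allow up to 498 CPM. The lead of Ahsp and Alas2 in the adult class also held labelled E16, where only 5 adult barcodes were present (Ahsp 10347 and 14990 CPM, Alas2 3238 and 18906), whereas Slc4a1 had 1766 and 1080 CPM there, with overlapping intervals.

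A few erythroid genes ran the other way. Bpgm, the enzyme that makes 2,3-bisphosphoglycerate and so lowers oxygen affinity of adult haemoglobin, stood at 759 CPM in the embryonic class labelled E18 (623 to 916) and 43.5 in the adult class (11.8 to 111), 17.5-fold higher; labelled E16 it had 2284 UMIs in the embryonic class and 0 among 7405 UMIs outside the globins in the adult class. The ferritin genes Fth1, at 58117 and 33178 CPM, and Ftl1, at 3367 and 1641 CPM, were higher in the embryonic class labelled E18, and stood at 93299 and 5670 CPM there without barcodes under 50% globin. Labelled E16 both ran the other way, with Fth1 at 43545 and 106955 and Ftl1 at 1953 (1879 to 2031) and 3781 (2513 to 5465). Gfi1b, a transcriptional repressor of the erythroid lineage, had 13 UMIs in the embryonic and 1 in the adult class. The 5 genes highest by the rule were LOC100361913, Ackr3 (an atypical chemokine receptor), Zfp36l2 (an mRNA decay factor), Igf2 (a fetal growth factor) and Csf1r (a receptor best known from macrophages). They had 74, 50, 46, 42 and 38 UMIs in the embryonic class and 0 in the adult class. With the adult class set at a floor of 3 UMIs, they were 15.9-fold, 10.8-fold, 9.91-fold, 9.05-fold and 8.19-fold higher. Without barcodes under 50% globin these folds were 27.1-fold, 14.9-fold, 15.3-fold, 9.42-fold and 14.1-fold. With all 31 barcodes, 20 of the 74 LOC100361913 UMIs and 17 of the 42 Igf2 UMIs were in 1 barcode each. These 2 genes had UMIs in 21 and 14 barcodes. The Csf1r UMIs were spread over 17 of 31 barcodes. The other 6 macrophage markers (Ptprc, C1qa, C1qb, C1qc, Tyrobp and Aif1) were at 0 in the same barcodes, and labelled E16 the embryonic class held 354 Csf1r UMIs of 361 for the 7 markers.

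**Figure D5:**
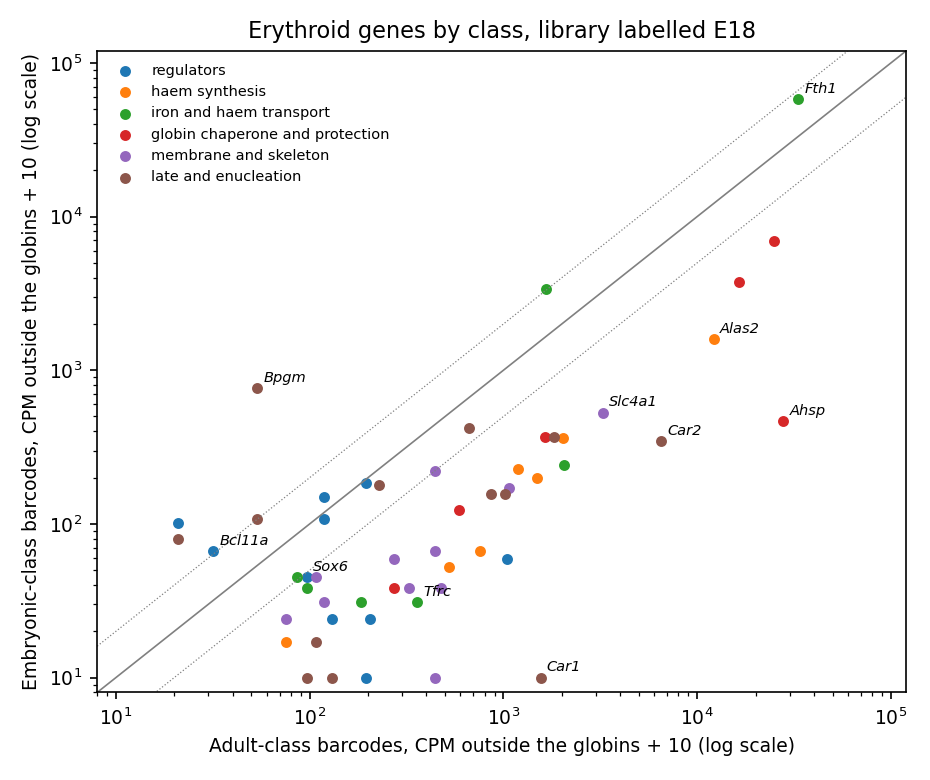
Each point is 1 erythroid gene of the library labelled E18, coloured by role: CPM outside the globins plus 10 in the summed embryonic-class barcodes (31, vertical log axis) against the adult-class barcodes (34, horizontal log axis); the solid line marks equal values and dotted lines 2-fold. Ahsp, at 457 against 27873 CPM, and Car1, at 0 against 1544, lie far below the line, and Bpgm, at 759 against 43.5, lies above it.

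Over all barcodes, of 36 list genes with a mean of at least 5 CPM, 14 were at least 2-fold higher and 1 lower labelled E16 than labelled E14, against 12.3% and 12.2% of all genes (median log2 ratio 0.77 and 0.03 for all genes). From E16 to E18 by label 1 was higher and 8 lower, against 5.64% and 1.21% (median -0.47 and 0.05 for all genes). From E14 to E18 by label 8 were higher and 0 lower, against 7.7% and 4.17% (median 0.19 and 0.08). Ahsp stood at 17.5, 193.5 and 36.8 CPM in label order and Slc4a1 at 2.08, 33.2 and 5.40, both with over 96% of their UMIs in globin-rich barcodes. The list also holds genes that cortical cells use: Bcl11a, a repressor of embryonic globin genes and also a gene of cortical neurons, stood at 270.5, 110.7 and 228.3 CPM, with at most 0.418% of its UMIs in globin-rich barcodes, so its level here does not describe red cells.

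A few globin-rich barcodes held much RNA of another kind. Of the 3 embryonic barcodes labelled E14, 2 had 99415 and 58889 UMIs, of which globins were 10.3% and 17.4%, with 561 and 233 UMIs of Cldn5, a tight-junction gene of brain endothelium, and 8 and 3 UMIs of the 8 erythroid markers. The third had 2681 UMIs, 68.9% of them globin. An adult-class barcode labelled E14 had 154929 UMIs, 11.9% of them globin, and 514 Cldn5 UMIs. Without barcodes under 50% globin, 1 embryonic barcode remained labelled E14, so no value of the embryonic class there rests on more than 1 barcode made mainly of globin. Labelled E18 the endothelial markers were near absent from the embryonic and adult classes, with 2 and 0 UMIs.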

How the data were processed

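Count tables of 3 single-cell libraries (10x Genomics 3′ v3.1 chemistry, per the labels' protocols) were used as deposited. The authors made these UMI counts per gene and barcode with Cell Ranger 6.0.1 on the rat build mRatBN7.2, per the submitters' processing notes; mapping options and the annotation release are not given in the sources used here. The labels' protocols also describe cultured cells, oligonucleotide tags and sorting of human cells, which do not match the fresh rat tissue of the sample labels. All deposited barcodes were kept, no other column of values was left unused (0), and no doublet caller or ambient correction was applied. Counts were summed over barcodes per library and class. Gene ratios were log2 of CPM with 1 CPM added (10 CPM between classes), over UMIs outside the globins, and genes entered at a mean of 5 CPM (50 CPM in a class). Ratios of the members between libraries used CPM over all UMIs. Per-barcode shares needed at least 20 UMIs in the denominator. A fold against a class at 0 used a floor of 3 UMIs over that class. PCR copies were removed by the UMIs. The printed intervals cover counting error only.

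The members, gene lists and rules were chosen with earlier results of these data known. Named genes were all members, the 3 highest genes of each erythroid role, the 8 genes most like the members (1 of them is not reported here), and the 5 highest and 5 lowest genes between classes; other genes were named from the erythroid list after their values were seen, and Hmga2, Aldoc and Cldn5 likewise. Alternatives changed the barcodes summed, the limits, the genes counted as embryonic, ambient subtraction, thinning to 500 globin UMIs, and the gene filters. The summing and ratio steps were tested on simulated data. Python 3.11.15 with numpy 2.4.6, scipy 1.17.1, pandas 2.3.3, matplotlib 3.10.9 and Biopython 1.88 was used.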

Additional observations from a re-analysis of the deposited data

Results flagged for a closer look

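Signal was also present in 2 globin genes that are not among the 10 members and enter no comparison above. Hbb-b1, an adult beta-like gene that lies between Hbbl1 and Hbb-bs, had 300 UMIs labelled E14, 35 labelled E16 and 450 labelled E18, of which 292, 34 and 443 were in globin-rich barcodes. Hbq1b, a theta-type gene that lies between Hba-a1 and Hba-a2, had 30, 124 and 64 UMIs, of which 28, 121 and 64 were in globin-rich barcodes. Each total lies above the 3 counts that a count of 0 allows. Hbb-b1 was thus lowest in the library where Hbb was lowest, and Hbq1b highest where Hba-a1 was highest. Hbbl1, listed in the deposited tables as LOC100134871 and matched here by its RefSeq gene ID, had 0 UMIs in all 3 libraries.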

How the results depend on the processing

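Of 189 alternative values, 122 stayed within the main value's interval or near it and 67 did not. Some shares crossed 50%: the alpha-like share labelled E14 and E16 and the embryonic share of beta-like UMIs labelled E18, with the values below. The numbers of globin-rich barcodes stayed within 1.5 times under the 200 UMI, 2000 UMI and 50% globin limits. The medians per globin-rich barcode stayed within their rank intervals there, and also under ambient subtraction and thinning. Such an interval comes from the ranks of barcodes in 1 library and says nothing of the spread between animals. Values are in label order. A filter for barcodes of 1000 or more detected genes and no more than 10% mitochondrial UMIs, which left 6, 144 and 15 of 38, 229 and 69 globin-rich barcodes, moved the median embryonic share per barcode to 0.0109% labelled E14 and 72.7% labelled E16 and the median alpha-like share to 49.9% and 50.8%; these counts and medians under the filter were added after the data were seen. The classes then held 2, 0 and 4 embryonic, mixed and adult barcodes labelled E14, 139, 5 and 0 labelled E16, and 7, 0 and 8 labelled E18. The same filter gave embryonic shares of globin of 14.04%, 71.9% and 22.7%, embryonic shares of beta-like UMIs of 25.3%, 96.0% and 42.2%, Hbz shares of 1.98%, 48.5% and 4.93%, alpha-like shares of 48.3%, 50.7% and 52.4%, and 1747, 48727 and 4092 globin UMIs per 1000000 UMIs. Barcodes under 100 globin UMIs gave 1.83%, 63.5% and 28.1% for the embryonic share, 3.98%, 93.7% and 57.1% of beta-like, 0.215%, 33.9% and 4.205% for Hbz, and 57.2%, 50.5% and 54.8% for alpha-like. Hbg1 counted as adult gave embryonic shares of 64.1% labelled E16 and 21.8% labelled E18; Hbg1 left out gave 93.8% and 42.5% of beta-like. For the erythroid list, E16 over E14 gave 7 genes higher at a minimum of 20 CPM, 28 with no minimum and 7 at 4-fold, with 0 lower at 4-fold. E18 over E16 gave 2 higher with no minimum and 0 at 4-fold, and 3 lower at 20 CPM, 17 with no minimum, 5 with 5 CPM added and 2 at 4-fold. E18 over E14 gave 3 higher at 20 CPM, 3 with 5 CPM added and 0 at 4-fold. Class limits of 20% and 80%, added after the data were seen, left 1 mixed and 9 adult barcodes labelled E16 and 2 mixed labelled E18; limits of 5% and 95% gave 41 mixed and 3 adult labelled E16. The smaller or larger sets of barcodes and genes are how these settings were built; other causes were not tested. No paired analysis was possible because each label has 1 library, which also leaves animals, litters and handling untested.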
